A study of Mus musculus with 8 samples.

Results

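The cytosolic ribosomal protein genes encode the protein part of the ribosome. They were taken here as the protein-coding genes of the deposited TPM (transcript abundance scaled to a fixed total per library) table whose GENCODE M21 symbol is Rps or Rpl followed by a number (with an optional a or x), a subunit letter a, or p0, p1 or p2. The rule found 76 genes among 55421 gene rows, 30 of the small subunit and 46 of the large subunit. All 76 passed the filter on low values. Rps3a1, Fau and Rack1 also encode ribosome components, but their symbols lie outside the rule. They are described with the related gene lists.

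RNA was measured in mouse bone marrow derived macrophages (BMDMs), primary cells grown out of marrow, at day 7 of differentiation. The 4 WT libraries carried the WT genotype and the 4 Baf60a KO libraries the Baf60a KO genotype, in mice named C57 in the series title. Both groups had the same differentiation treatment. The sources used here do not give the targeted exons, any Cre driver, the age of the mice or the animal behind each library. Every p-value below therefore reflects only how these libraries spread, and that spread may be technical. Smarcd1 encodes Baf60a, which belongs to the SWI/SNF complex that remodels chromatin. Smarcd1 read 16.3, 14.3, 14.8 and 14.01 TPM in WT replicates 1 to 4 and 10.8, 10.3, 10.9 and 9.91 TPM in Baf60a KO replicates 1 to 4. It fell by 0.47 on the log2 scale (limma adjusted p = 0.00756), and all KO libraries lay below all WT libraries.

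Each library sums to 1000000 TPM, within 1, so read depth cannot be read from the values. All 8 macrophage markers were expressed and tested. Of these Cd68 and Itgam rose (25%, against 4.40% of all genes tested) while Lyz2 fell (12.5%, against 1.21%). An unadjusted p under 0.05 in limma was found for 7 of the 8 (87.5%), against 22.3% of all genes tested. The 8 markers summed to 5688 to 6597 TPM in WT and 4193 to 4536 TPM in KO, without overlap. Without Lyz2, which read 3993 ± 248 TPM in WT and 1927 ± 110 TPM in KO (SD, n = 4), the other 7 summed to 1879 to 2288 TPM and 2384 to 2481 TPM. The 8 stroma markers summed to 3234 to 3628 TPM in WT and 3948 to 4241 TPM in KO, and Lum was near 0. Of the 7 tested, 4 rose (57.1%, against 4.40% of all genes tested) and 5 had an unadjusted p under 0.05 (71.4%, against 22.3%). The 8 neutrophil markers summed to 199 to 293 TPM in WT and 150 to 242 TPM in KO, and none was called, with 1 of the 5 tested at an unadjusted p under 0.05. The B cell, T cell and dendritic cell markers each summed to at most 3.02 TPM in any library. The erythroid markers summed to 6.64 to 50.6 TPM in WT and 4.86 to 28.3 TPM in KO. Of the 3 tested, 0 were called and 0 had an unadjusted p under 0.05 in limma, at a median log2 fold change of -0.53. The part of these markers in the ribosomal protein values was not tested. In bulk RNA, fewer cells of a type and less RNA per cell cannot be told apart.

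A ribosome has a small subunit, which reads the mRNA, and a large subunit, which joins amino acids. Each holds 1 copy of nearly every one of its proteins, so growing cells make ribosomal protein mRNAs in bulk and in matched amounts. Most of these mRNAs begin with a short pyrimidine tract, the 5′ TOP element, through which mTORC1 and LARP1 set their translation as a group. Mammalian genomes also carry many processed pseudogenes of ribosomal protein genes, which are copies of the spliced mRNA inserted elsewhere in the genome.

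Rps23 was the 1 ribosomal protein gene called by limma at an adjusted p under 0.05. Its protein sits at the decoding centre of the small subunit, where the match between codon and tRNA is read. Nearly identical pseudogenes are quantified beside it: the Rps23-ps2 row matched it at 99.5% identity over 432 bases, and the Rps23-ps1 row at 100% over 425 bases. Coding sequences printed below come from the GENCODE M21 transcripts of the GRCm38 (mm10) genome.

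Rps23 (ENSMUSG00000049517, chr13:90922958-90924950, plus strand) read 2352, 2598, 2544 and 2566 TPM in WT replicates 1 to 4. It read 1830, 1813, 1903 and 1819 TPM in Baf60a KO replicates 1 to 4. The groups did not overlap. The mean was 2515 ± 111 TPM (SD, n = 4) in WT and 1841 ± 41.6 TPM (SD, n = 4) in KO, a KO/WT ratio of 0.732. On the log2(TPM + 1) scale Rps23 fell by 0.45 (SE 0.042, 95% confidence interval -0.54 to -0.35, limma adjusted p = 0.00165). Its level was 1.396, 1.53, 1.51 and 1.61 times the median of the other 75 ribosomal protein genes in the WT libraries. In the KO libraries the same ratio was 1.07, 1.05, 1.08 and 1.08. By mean TPM, Rps23 moved from rank 8 to rank 18 among the 30 small subunit genes. Among all genes tested it ranked 22 by adjusted p, and among the genes that fell it ranked 2 by TPM lost (674 TPM). It stayed called under each of the 22 alternative settings, at log2 fold changes of -0.51 to -0.42 and adjusted p from 0.000619 to 0.0243.

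Of the 76 ribosomal protein genes, 0 rose and 1 fell by limma at an adjusted p under 0.05, which is 1.32% of them. Of all 13933 genes in the fit 782 passed (5.61%): 613 rose (4.40%) and 169 fell (1.21%). That split depends on the scaling: it was 516 and 404 with median-of-ratios scaling, 440 and 254 with quantile normalization, and 598 and 321 with TPM rescaled over protein-coding genes. At an unadjusted p under 0.05 there were 7 ribosomal protein genes, 6 of them higher in KO. This is 9.21% of the ribosomal protein genes, against 22.3% of all genes tested. The median log2 fold change was 0.03 for the ribosomal protein genes and 0.03 for all genes tested. Without Rps23 the estimates ran from -0.08 (Rpl12) to 0.16 (Rpl5), a range of 0.25, and Rps23 lay 0.36 below the next lowest gene. The estimate was within 0.1 of 0 for 69 of the 76 genes (90.8%), against 49.6% of all genes tested.

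**Figure D1:**
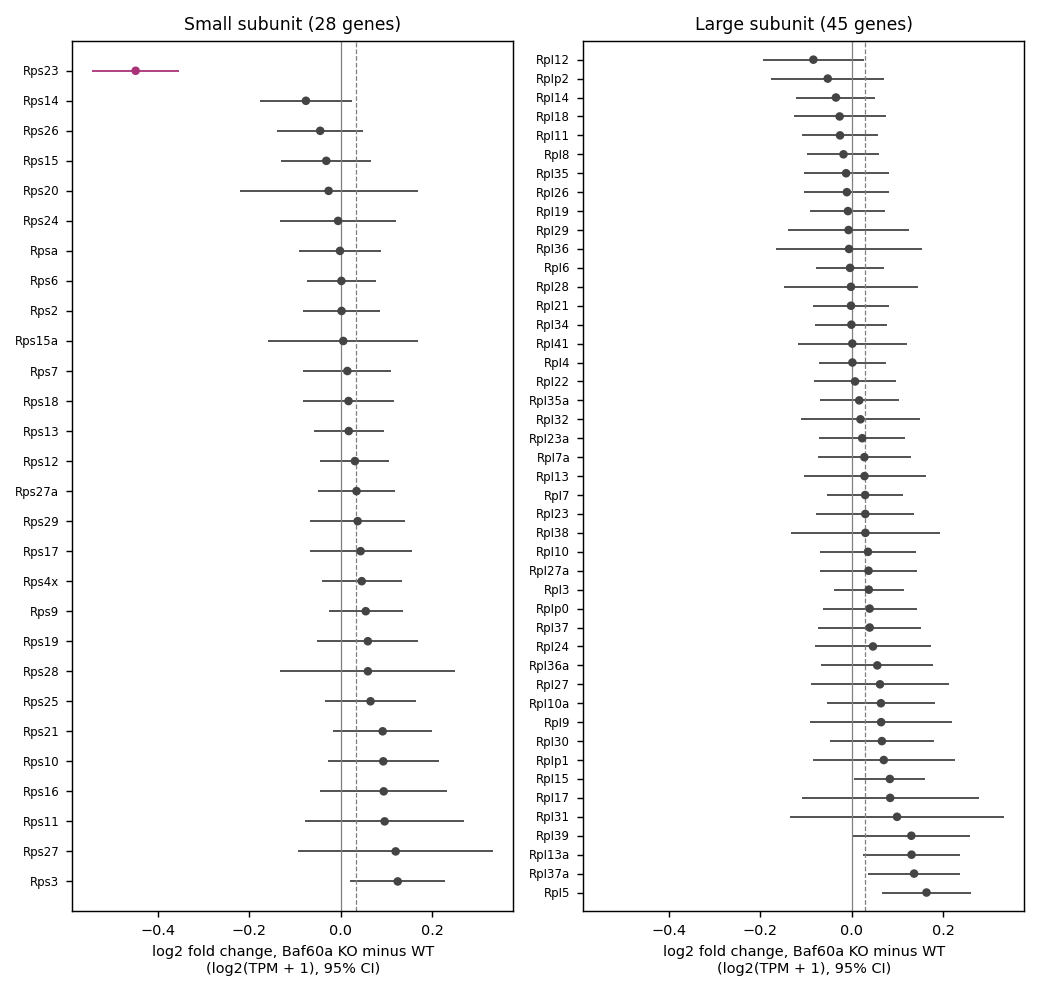
Each point is the log2 fold change of 1 of 73 ribosomal protein genes (28 small and 45 large subunit), Baf60a KO minus WT, on the log2(TPM + 1) scale, with its 95% confidence interval from limma over 4 WT and 4 KO libraries. Dashed lines mark the median over all 30 small and all 46 large subunit genes (0.03 in both), and Rps23 at -0.45, in purple, is the 1 called gene.

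The confidence intervals of the fit describe the spread between libraries in the deposited TPM, and not the effect of read placement or scaling. The 95% confidence interval reached to either side of the estimate by a median of 0.10 on the log2 scale, and by 0.23 for Rpl31, the widest. The interval lay inside -0.2 to 0.2 for 58 of the 76 genes and inside -0.3 to 0.3 for 73. Rpl39, with an interval of 0.003 to 0.257, was at -1.94 when the TPM of matched pseudogene rows was added, so these intervals do not bound such changes. The coefficient of variation between replicates had a median of 4.80% in WT and 2.57% in KO, against 9.36% and 6.74% over all genes tested. The KO libraries varied less than the WT libraries for 63 of the 76 genes.

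The small and large subunits were compared next. The 30 small subunit genes had a median log2 fold change of 0.03, with 23 estimates above 0 and 7 below, and 1 fell (3.33%, against 1.21% of all genes tested). The 46 large subunit genes had a median of 0.03, with 31 above 0 and 15 below, and 0 were called, 5 having an unadjusted p under 0.05. Single libraries moved these medians: the small and large subunit medians were 0.0104 and -0.0065 without WT replicate 4, 0.0558 and 0.0375 without WT replicate 3, and 0.0195 and 0.0131 without Baf60a KO replicate 3. Over all 76 genes the median was 0.0013, 0.0446 and 0.0142 in those fits. Small subunit mRNAs made up 6.53% ± 0.265 of all TPM in WT and 6.59% ± 0.140 in KO (SD, n = 4). Large subunit mRNAs made up 8.0% ± 0.280 in WT and 8.18% ± 0.179 in KO (SD, n = 4). All 76 together made up 14.5% ± 0.543 in WT and 14.8% ± 0.316 in KO (SD, n = 4).

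Summed small subunit TPM over summed large subunit TPM was 0.815, 0.815, 0.826 and 0.811 in WT replicates 1 to 4. It was 0.809, 0.806, 0.808 and 0.799 in Baf60a KO replicates 1 to 4. The groups did not overlap, although the KO/WT ratio of the means was only 0.986. Without Rps23 the values were 0.786, 0.783, 0.795 and 0.777 in WT. They were 0.786, 0.784, 0.786 and 0.777 in KO. The groups then overlapped, at a KO/WT ratio of 0.997. Rps23 was singled out for its fall in these same data, so leaving it out had to raise this ratio. The comparison is a description and not an independent check. The ratio also depends on how pseudogene rows are treated. With the TPM of matched pseudogene rows added to each gene, it was 1.02, 0.991, 0.880 and 0.898 in WT and 0.969, 0.980, 0.982 and 0.959 in KO, so its direction turned (KO/WT 1.03). WT replicates 3 and 4 lay below all KO libraries, but WT replicates 1 and 2 lay above them. The Gm19366 row, matched to Rpl39, held 14143 and 12962 TPM in WT replicates 3 and 4 and was listed at 0 in the other libraries. That row is only 156 bases long. TPM weighs each read by the length of its row, so these sums are not counts of reads.

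**Figure D2:**
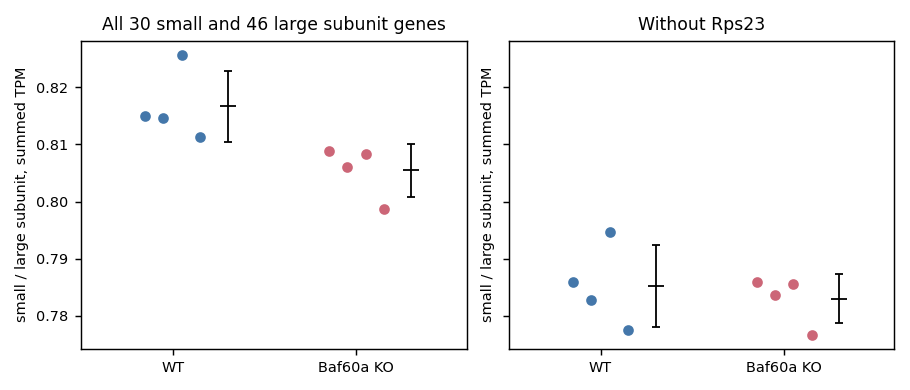
Summed TPM of the small subunit genes divided by that of the large subunit genes, with all genes (left) and without Rps23 (right). Points are libraries and bars are the mean and SD of 4 libraries. The y axis does not start at 0, and the separation of WT (0.811 to 0.826) from KO (0.799 to 0.809) is absent without Rps23. Rps23 was singled out for its fall in these same data.

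Within the small subunit, Rps23 was compared with proteins that work beside it. Rps2, Rps3, Rps9 and Rps15 line the mRNA entry channel and the decoding region, and none of these was called. Rps3 read 1291, 1396, 1482 and 1422 TPM in WT and 1522, 1495, 1520 and 1548 TPM in KO, so the groups did not overlap. The difference was 0.12 on the log2 scale, with an SE of 0.046 and a limma adjusted p of 0.153. Rps2 read 3345 ± 87.1 TPM in WT and 3347 ± 82.1 TPM in KO (SD, n = 4), a log2 fold change of 0.00 with a 95% confidence interval of -0.08 to 0.08. Rps9 (0.05) and Rps15 (-0.03) also had intervals that hold 0. The genes of the mRNA exit side and platform (Rps14, Rps26, Rpsa and Rps28) had estimates from -0.08 to 0.06, with none called. Those of the foot, with the S6 kinase substrate Rps6 (Rps6, Rps4x and Rps24), ran from -0.01 to 0.05, with none called.

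Within the large subunit, Rpl5 came nearest to a call. Rpl5 and Rpl11 bind the 5S rRNA, and the same particle is known to bind the p53 regulator Mdm2. Rpl5 read 510, 562, 565 and 546 TPM in WT and 632, 593, 618 and 602 TPM in KO, and the groups did not overlap. Its log2 fold change was 0.16 (SE 0.043, 95% confidence interval 0.06 to 0.26, limma adjusted p = 0.0639). Over the 22 alternatives its adjusted p ran from 0.0470 (with quantile normalization, where it was called) to 0.371. The highest was with the TPM of matched pseudogene rows added, where its log2 fold change was 0.06. Rpl11 read 1638 ± 42.9 TPM in WT and 1609 ± 42.8 TPM in KO (SD, n = 4), an estimate of -0.03. Rpl37a also did not overlap, at 1081, 1048, 1168 and 1114 TPM in WT and 1176, 1178, 1250 and 1242 TPM in KO (log2 fold change 0.14, limma adjusted p = 0.113). In all, 4 of the 76 genes (5.26%) had groups that did not overlap, Rps23 lower and Rps3, Rpl37a and Rpl5 higher in KO. Over all genes tested, groups did not overlap for 15.8%, with KO higher for 11.9% and KO lower for 3.96%.

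Next by adjusted p were Rpl13a, whose protein is known to leave the ribosome in interferon-treated monocytes, Rpl15 and Rpl39. Rpl13a read 3994 ± 157 TPM in WT and 4373 ± 191 TPM in KO (SD, n = 4), a log2 fold change of 0.13 (limma adjusted p = 0.142). Rpl15 read 1168 ± 21.6 TPM and 1237 ± 31.8 TPM (SD, n = 4), a log2 fold change of 0.08 (limma adjusted p = 0.195). Rpl39, a small protein of the exit tunnel, read 784 ± 60.8 TPM and 856 ± 21.5 TPM (SD, n = 4), a log2 fold change of 0.13 (limma adjusted p = 0.216). Rps21 read 2088 ± 90.3 TPM and 2224 ± 101 TPM (SD, n = 4), a log2 fold change of 0.09 (limma adjusted p = 0.301). The lowest estimates after Rps23 were Rpl12 (-0.08, adjusted p = 0.352) and Rps14 (-0.08, adjusted p = 0.348). Rpl12 is part of the base of the stalk, the flexible arm that recruits translation factors. The other stalk genes read -0.05 (Rplp2), 0.04 (Rplp0) and 0.07 (Rplp1). The 8 genes of the exit tunnel and its rim ran from -0.01 to 0.13, and the 4 of the peptidyl transferase centre and late assembly (Rpl3, Rpl10, Rpl8 and Rpl24) from -0.02 to 0.05, with none called.

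Levels differed between genes by 11.3-fold although most of their proteins have 1 copy in a ribosome. TPM is corrected for transcript length, but a level also depends on how reads are placed between a gene and its pseudogene rows, described below. Rplp1, a stalk protein present in more than a single copy, was highest at a mean of 6514 TPM over all libraries. Rps14 followed at 5016 TPM and Rpl13a at 4183 TPM. Rps27 (3850 TPM), Rpl41 (3828 TPM) and Rps18 (3652 TPM) came next. In the large subunit Rpl5 (578 TPM), Rpl27a (743 TPM) and Rpl39 (820 TPM) were lowest. Each of these had more TPM on matched pseudogene rows than on the gene (58.2%, 57.8% and 81.0% of gene and rows together). Their low ranks are therefore uncertain, as is the size of the range between genes. In the small subunit Rps20 (1014 TPM), Rps13 (1211 TPM) and Rps7 (1217 TPM) were lowest, and Rps13 and Rps7 did not differ beyond their spread. Between 1000 and 3000 TPM lay 59 of the 76 genes. The median level was 2034 TPM over small subunit genes and 1448 TPM over large subunit genes. The order of levels was nearly the same in both groups, with Spearman's rho of 0.988 between WT and KO means across the 76 genes, which share libraries and are not independent replicates.

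Several genes moved together between libraries of 1 group. WT replicate 4 held the lowest of the 8 values for 46 of the 76 genes, and Baf60a KO replicate 3 the highest for 28. As a median deviation from each gene's mean over all libraries, WT replicate 4 lay at -0.09 (log2) in the small and -0.07 in the large subunit. Baf60a KO replicate 3 lay at 0.06 and 0.05. Not all genes followed WT replicate 4, which held the highest of the 8 values for 7 genes. Rps23 was among those that did not follow it, at 2566 TPM, within the range of the other WT libraries.

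The genes lie on 19 chromosomes, 14 of them on chromosome 7. Small nucleolar RNAs, which guide rRNA modification, lie within 29 of the 76 genes, up to 5 in Rpl4. The median log2 fold change was 0.03 both for the 29 host genes and for the 47 others. Across the 76 genes, Spearman's rho of the log2 fold change was -0.05 with transcript length and -0.06 with mean TPM. These are descriptions over genes that share the same libraries.

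The start of the 5′ TOP mRNAs can be seen in sequence. RefSeq start windows on GRCm38.p6 were found for 56 of the 76 genes. Windows of 30 bases, 15 on each side of the annotated start, were searched for CTTTC. On the sense strand 16 of the 56 genes (28.6%) held it, against 4.76% of all 27025 genes with a window. Searched on both strands, the shares were 30.4% and 8.83%. Genes with the sense motif had a median log2 fold change of 0.02 and the 40 without it 0.03. CCGGAAG, a core bound by ETS factors, was searched on both strands of the 300-base window from 250 bases before to 50 after the start. It was in 41.1% of the 56 genes and 9.93% of all genes, with median log2 fold changes of 0.00 in the 23 genes with it and 0.04 in the 33 without. The windows of Rpl15, with 1 match, Rpl35, with 2, and Rps23, with none, are shown with CTTTC in capitals. Annotated starts can be off by many bases, so no match says only that the letters are not in this window.
Rpl15, chr14:18270972-18271001, minus strand: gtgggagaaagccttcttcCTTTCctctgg
Rpl35, chr2:39005117-39005146, minus strand: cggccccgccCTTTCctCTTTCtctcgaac
Rps23, chr13:90923107-90923136, plus strand: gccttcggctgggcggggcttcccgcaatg

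Reads of ribosomal protein mRNAs can also fit their pseudogenes, and this bears on every level above. By BLAST, 1643 processed pseudogene rows of the table matched a ribosomal protein transcript, at least 1 for each of the 76 genes and up to 158 for Rpl7a. Of the 470 that passed the filter, 1 rose and 1 fell, with a median log2 fold change of -0.09. Over all genes tested 4.40% rose and 1.21% fell. The matched rows took 4.93%, 5.29%, 8.85% and 8.85% of all TPM in the WT libraries, by replicate, and 5.83%, 5.57%, 5.48% and 5.18% in the KO libraries. WT replicates 3 and 4 stood apart, and 382 of the 470 rows (81.3%) had their highest value in one of these libraries. Without WT replicates 3 and 4, Rps23 was still called and was the 1 ribosomal protein gene called.

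**Figure D3:**
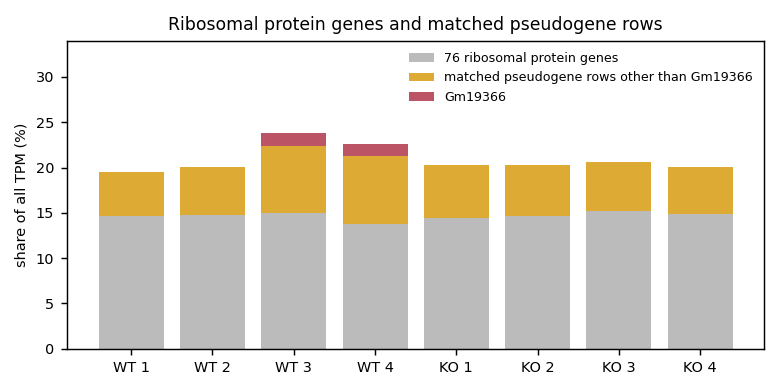
Share of all TPM, in percent, taken by the 76 ribosomal protein genes and by the pseudogene rows matched to them, stacked for each of the 4 WT and 4 Baf60a KO libraries. The genes take 13.7% to 15.2% in each library, and the matched rows take 8.85% in WT replicates 3 and 4 against 4.93% to 5.83% in the other libraries.

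The pseudogene rows of Rps23 were read with it. Rps23-ps2 (chr8:3583799-3584230, minus strand) read 401, 563, 926 and 1118 TPM in WT and 499, 453, 444 and 403 TPM in KO, and the groups overlapped (limma adjusted p = 0.236). Rps23-ps1 (chr3:37714740-37715164, plus strand) read 290, 249, 183 and 126 TPM in WT and 148, 151, 160 and 144 TPM in KO, and the groups overlapped (limma adjusted p = 0.308). WT replicates 3 and 4 were high for the first and low for the second. Gm9701 (chr3:62923807-62924233) and Gm14633 (chrX:56447888-56448357) read means of 22.8 and 8.28 TPM over all libraries. Since Rps23-ps1 is identical to Rps23 over its 425 bases, reads from that stretch cannot be told apart by sequence. The sum of Rps23 and its 15 matched rows takes in reads placed on any of them, although TPM weighs each read by the length of its row. It was 3082, 3467, 3753 and 3893 TPM in WT and 2529, 2462, 2550 and 2406 TPM in KO, without overlap. The sum fell by 0.51 on the log2 scale (SE 0.070, 95% confidence interval -0.67 to -0.35, limma adjusted p = 0.00676).

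**Figure D4:**
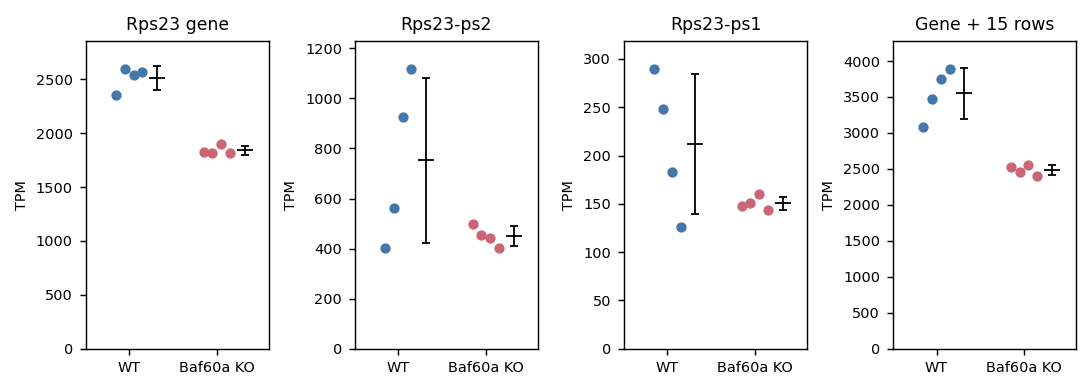
TPM of the Rps23 gene, of 2 of its pseudogene rows and of the gene summed with all 15 matched rows. Points are libraries, in replicate order from left to right within each group, and bars are the mean and SD of 4 libraries. WT and Baf60a KO do not overlap for the gene (2352 to 2598 against 1813 to 1903 TPM) or the sum, and overlap for both pseudogene rows.

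Other genes are less certain for the same reason. For each gene, the share of TPM on its matched rows, out of gene and rows together, had a median of 18.2%, and 7 genes had more TPM on pseudogene rows than on the gene. The share was highest for Rps29 (89.9%), then Rpl39 (81.0%), Rps28 (64.8%) and Rpl5 (58.2%). It was 0 for genes such as Rpl8 and Rpl41. These are shares of TPM and not of reads, since TPM weighs each read by the length of its row. Across the 76 genes, Spearman's rho between this share and the log2 fold change was 0.08, a description with no test.

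The Rpl39 match shows how near these copies are. Gm19366 (chr7:128013029-128013184, minus strand) was listed at 0 in 6 libraries and read 14143 TPM in WT replicate 3 and 12962 TPM in WT replicate 4. Its 156 bases differ from the Rpl39 coding sequence at T80C, C82T, A103G and A110T, in capitals, counted from the start codon.
Rpl39: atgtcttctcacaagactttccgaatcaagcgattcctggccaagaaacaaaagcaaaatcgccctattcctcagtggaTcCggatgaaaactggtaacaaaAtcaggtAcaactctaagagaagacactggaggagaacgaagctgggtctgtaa
Gm19366: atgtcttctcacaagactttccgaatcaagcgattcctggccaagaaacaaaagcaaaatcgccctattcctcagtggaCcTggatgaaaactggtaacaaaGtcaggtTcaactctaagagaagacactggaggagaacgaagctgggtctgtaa
Rpl39 itself read 863 TPM in WT replicate 3 and 774 TPM in WT replicate 4, and 715 and 784 TPM in WT replicates 1 and 2. With the matched rows added, its log2 fold change went from 0.13 to -1.94 (limma adjusted p = 0.284).

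Gm5735 (chr7:101061309-101061475, minus strand), matched to Rps29, was the highest of the matched rows. It read 20093, 18735, 21398 and 24317 TPM in WT and 18718, 18896, 19517 and 17480 TPM in KO, against means of 2384 TPM and 2443 TPM for Rps29. Its log2 fold change was -0.17 (limma adjusted p = 0.241). Bases 90 to 149 of the Rps29 coding sequence and the same stretch of Gm5735 are shown, with the substitutions A112T, G144T, A148T and T149A in capitals.
Rps29: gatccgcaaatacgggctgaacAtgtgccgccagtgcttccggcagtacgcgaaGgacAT
Gm5735: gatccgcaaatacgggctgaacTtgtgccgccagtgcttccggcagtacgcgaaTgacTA
The next matched row was Gm13192 (chr2:4959545-4959752, minus strand), which matched Rps28 at 99.5% identity and read 3714 ± 612 TPM in WT and 3237 ± 135 TPM in KO (SD, n = 4).

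The genes around Rps23 on chromosome 13 were then read, in a window of 1 Mb on each side that was chosen after the Rps23 values were seen. No other gene row overlaps Rps23, and 7 other genes in the window were tested. Of these, 6 had estimates below 0, 1 fell and 2 had KO lower without overlap. Over all genes tested 57.5% had estimates above 0, 1.21% fell and 3.96% had KO lower without overlap. Ssbp2, a single-stranded DNA binding protein, read 10.3, 8.99, 8.14 and 7.87 TPM in WT and 7.06, 6.16, 6.43 and 6.23 TPM in KO, and it fell by 0.39 on the log2 scale (limma adjusted p = 0.0378). It kept that call in 13 of 22 alternatives, and of the 8 fits that left out 1 library only the fit without WT replicate 3 called it (highest adjusted p 0.111, without Baf60a KO replicate 4). Tmem167 also had groups that did not overlap (log2 fold change -0.24, limma adjusted p = 0.0556), and it was called in 7 of 22 alternatives (highest adjusted p 0.147, without Baf60a KO replicate 4). The nearest gene, Atg10, which acts in autophagy and whose near end lies 10.4 kb beyond Rps23, read -0.20 (limma adjusted p = 0.226). Zcchc9 read 0.06.

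Ribosome components outside the symbol rule were read next. Of Rps3a1, Fau and Rack1, 0 were called by limma and 1 had an unadjusted p under 0.05. Fau, which encodes a small subunit protein fused to a ubiquitin-like protein, read 2160 ± 69.2 TPM in WT and 2177 ± 38.5 TPM in KO (SD, n = 4). Rps3a1, a small subunit protein, read 1743 ± 54.7 TPM and 1708 ± 33.9 TPM (SD, n = 4). Among 8 tested ribosomal protein paralogs 0 were called and 1 had an unadjusted p under 0.05, with Rpl36al at 669 and 675 TPM and Rps27l at 630 and 638 TPM in WT and KO. Of 78 mitochondrial ribosomal protein genes 0 rose and 1 fell (1.28%, near the 1.21% of all genes tested), at a median log2 fold change of 0.00. That gene was Mrpl32, at 42.2 ± 1.07 TPM in WT and 36.1 ± 1.78 TPM in KO (SD, n = 4), which fell by 0.22 on the log2 scale (limma adjusted p = 0.0347) and kept its call without WT replicate 3 but not without any other single library.

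Genes that share the TOP start or act in translation were read from lists. Of 14 elongation factors and other TOP genes 0 were called, with 4 at an unadjusted p under 0.05 and a median of 0.02. Eef1a1, which brings tRNAs to the ribosome, read 6659 ± 99.98 TPM in WT and 6992 ± 131 TPM in KO (SD, n = 4, limma adjusted p = 0.274). Tpt1 read 3119 ± 198 TPM and 3452 ± 147 TPM (SD, n = 4, limma adjusted p = 0.159). Of 10 noncoding snoRNA host genes with a TOP start 0 rose and 2 fell (20%, against 1.21% of all genes tested), at a median of -0.12. An unadjusted p under 0.05 was found for 5 of the 10 (50%), against 22.3% of all genes tested. Snhg5 read 51.6, 52.0, 50.5 and 54.0 TPM in WT and 40.4, 45.9, 45.4 and 42.6 TPM in KO (log2 fold change -0.25, limma adjusted p = 0.0300). Snhg15 read 54.4 ± 3.05 TPM and 44.2 ± 2.87 TPM (SD, n = 4, log2 fold change -0.30, limma adjusted p = 0.0322). Among fits without 1 library, Snhg5 kept its call without WT replicate 1 or 3 only, and Snhg15 without WT replicate 2 or 3 only.

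Ribosome biogenesis factors assemble the subunits in the nucleolus and are not part of the finished ribosome. Of 56 tested, 0 rose and 6 fell (10.7%, against 1.21% of all genes tested). An unadjusted p under 0.05 was found for 20 (35.7%, against 22.3%), and the median log2 fold change was -0.13 against 0.03 over all genes tested. Wdr43, a small subunit processome component, read 47.9, 56.9, 51.3 and 50.3 TPM in WT and 40.7, 44.0, 41.3 and 40.5 TPM in KO (log2 fold change -0.30, limma adjusted p = 0.0276). Nop14 fell by 0.34 on the log2 scale (limma adjusted p = 0.0326). Ncl, the nucleolar protein nucleolin, read 295, 345, 303 and 329 TPM in WT and 268, 278, 261 and 258 TPM in KO (log2 fold change -0.25, limma adjusted p = 0.0367). Gnl3, or nucleostemin, fell by 0.26 on the log2 scale (limma adjusted p = 0.0367). Nolc1 and Tsr2 were the other calls. Tsr2, which carries Rps26 to the assembling ribosome, was also the 1 gene called among 8 ribosomal protein chaperones (12.5%, against 1.21% of all genes tested). It read 12.2 ± 0.950 TPM in WT and 9.73 ± 0.625 TPM in KO (SD, n = 4, limma adjusted p = 0.0453). Tsr2 lost that call, leaving 0 chaperones called, in each of the 8 fits without 1 library (highest limma adjusted p 0.119, without Baf60a KO replicate 3). The call was also lost without WT replicates 3 and 4 (0.0822) and with the replicate block (0.113). No filter on low values, quantile normalization and library weights each removed it as well. The count of biogenesis factors moved with single libraries: 0 fell without WT replicate 4 or without any 1 of the 4 KO libraries, 3 without WT replicate 1, 2 without WT replicate 2 and 7 without WT replicate 3. It was larger under other scalings, at 15 with median-of-ratios scaling and 11 with TPM rescaled over protein-coding genes. The number that fell over all genes tested moved in the same direction in these fits. It was 169 as reported, 51 without WT replicate 4, and 40, 50, 46 and 36 without Baf60a KO replicates 1 to 4. Without WT replicate 1, 2 or 3 it was 147, 63 and 235. Under the scalings named it was 404 and 321.

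Of 37 translation initiation factors 0 rose and 1 fell (2.70%, against 1.21% of all genes tested), at a median of -0.01. Eif4e, the cap-binding factor, read 156, 182, 167 and 169 TPM in WT and 148, 145, 147 and 138 TPM in KO (log2 fold change -0.22, limma adjusted p = 0.0417), and without 1 library it was called without WT replicate 1 only. Of 29 genes of RNA polymerases I and III, which transcribe rRNA and tRNA, 0 were called and 4 had an unadjusted p under 0.05, at a median of -0.02. Their most abundant were Polr1d (115 and 117 TPM in WT and KO) and Taf1d (74.0 and 68.5 TPM). Of 18 tested genes on a list drawn around mTORC1, S6 kinase and LARP1, 1 rose (5.56%, near the 4.40% of all genes tested) and 0 fell. The gene that rose was Mxd4, which is not itself part of mTORC1, S6 kinase or LARP1, and the other 17 were not called. Mxd4, a partner of Max, read 15.3, 16.5, 18.5 and 16.9 TPM in WT and 21.6, 21.3, 28.1 and 24.8 TPM in KO (log2 fold change 0.48, limma adjusted p = 0.0285). It kept that call without WT replicate 1 or 3 or Baf60a KO replicate 2, and lost it without any of the other 5 libraries. As a sign of RNA quality, 0 of 13 mitochondrially encoded protein genes were called, and 0 had an unadjusted p under 0.05, with mt-Co1 at 2490 ± 375 TPM in WT and 2703 ± 139 TPM in KO and mt-Atp8 at 2327 ± 141 and 2504 ± 68.5 TPM (SD, n = 4).

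**Figure D5:**
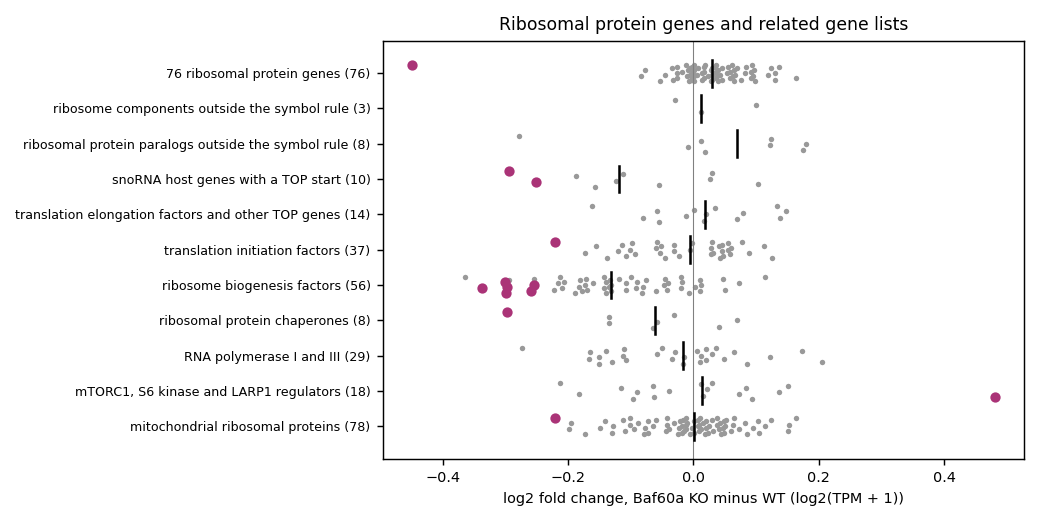
Log2 fold change of every tested gene, Baf60a KO minus WT on the log2(TPM + 1) scale, for the 76 ribosomal protein genes and 10 related lists, with the number tested in brackets. Purple points passed an adjusted p under 0.05, black lines are medians, and points are spread vertically to be seen. The ribosomal protein genes lie close to 0 apart from Rps23, and the ribosome biogenesis factors have a median of -0.13.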

How the data were processed

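Per the labels' protocols, total RNA was made into libraries with the NEBNext Ultra kit and sequenced as paired reads. The submitters' processing notes name Salmon 1.2.0 and mm10, with no role given. The authors deposited TPM per gene, which sum to 1000000 per library and hold no depth. GENCODE M21 gave symbols for 55240 of 55421 gene rows. Genes above 1 TPM in 4 or more of the 8 libraries went into limma 3.58.1 (R 4.3.3, trend, Benjamini-Hochberg over all 13933) on log2(TPM + 1), Baf60a KO against WT, 4 libraries each. Fold changes are on that scale, which understates changes of low genes. A gene rose or fell at an adjusted p under 0.05. Processed pseudogene transcripts were matched to protein-coding transcripts with BLAST 2.17.0 (at least 80% identity over 50% of the row), and each row was given to its best match. The fit was tested on simulated data. The members and lists were chosen with earlier results of these data known, and the role groups after the values were seen. Genes named were Smarcd1, Rps23, the 12 members with the smallest adjusted p, the 3 highest and 3 lowest of each subunit, those with the largest or smallest pseudogene share, and called or most abundant list genes and pseudogene rows. Genes named in role groups, as neighbours of Rps23 or for their library pattern were added after their values were seen. Alternatives varied the pseudocount, filter, trend, scaling, pseudogene handling, library weights, replicate block and libraries left out. No 2 libraries held identical values. A few members, 1 list gene and 1 sequence are not reported here, and counts over all 76 genes include those members.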

Additional observations from a re-analysis of the deposited data

Results flagged for a closer look

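Over 73 of the ribosomal protein genes, the summed shares and ratios, and the other genes given with values, 10 of 224 groups of 4 libraries held 1 value far from the other 3, by Dixon's test. Chance flags about 1 in 20 groups. In WT replicate 4 the value was the low one of its group for 4 genes: Rplp1 at 5511 TPM, Rps18 at 3373 TPM, Rpl9 at 1668 TPM and Rpl31 at 1403 TPM. This is the library that held the lowest of 8 values for 46 of the 76 ribosomal protein genes. Rpl10 was high in WT replicate 1 at 2168 TPM, and Rps27a was high in WT replicate 3 at 2105 TPM. Among the Baf60a KO libraries, Rps7 was high in replicate 3 at 1281 TPM, and Rpl35 was low in replicate 1 at 1095 TPM. In replicate 4, Tmem167 was low at 8.26 TPM and Rps27l was low at 606 TPM. Rps23 held no such value in either group.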

How the results depend on the processing

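Rps23 fell under all 22 alternatives, at log2 fold changes of -0.51 to -0.42, and was the 1 ribosomal protein gene called in each except with quantile normalization, where 1 (Rpl5) rose. The 782 calls over all genes became 364 with no filter, 372 without WT replicates 3 and 4, and 1265 with pseudogene rows left out and TPM rescaled, a setting added after seeing the data. Leaving out 1 library gave 156 to 679 calls, namely 447 when WT replicate 2 was left out, 229 for WT replicate 4, and 228, 217, 212 and 156 for Baf60a KO replicates 1 to 4. The small subunit median was -0.0197 with pseudogene TPM added. The large subunit median was -0.0177 with it and -0.0088 with median-of-ratios scaling. Without 1 library the small subunit median was 0.0104 to 0.0558 and the large subunit median -0.0065 to 0.0413, and the large subunit median was -0.0059 without WT replicates 3 and 4. The KO/WT ratio of small over large TPM was 1.03 with pseudogene TPM added. The alternatives for the list and neighbouring genes were also added after seeing the data. The 6 biogenesis factors that fell became 0 with no filter, 15 with median-of-ratios scaling, 11 and 10 with TPM rescaled over protein-coding genes with and without the 76, 3 without WT replicates 3 and 4, 16 with pseudogene rows left out, and 0 to 7 without 1 library. Over all genes tested, the 169 that fell became 72 with no filter and 404 with median-of-ratios scaling. They became 321 and 342 with TPM rescaled over protein-coding genes with and without the 76. They were 171 without WT replicates 3 and 4, 494 with pseudogene rows left out, and 36 to 235 without 1 library. The causes of these changes were not tested. Of the other ribosomal protein genes, 19 chosen by level, adjusted p or pseudogene share were refitted. Of their 418 refits, 406 stayed within 1 SD, 11 moved further and 1 became a call. The estimate had the opposite sign in 37 refits of 9 genes, none of them called (lowest adjusted p 0.136 in limma), and 6 of these moved by over 1 SD. With pseudogene TPM added, Rpl39 was at -1.94, Rps29 at -0.14, Rps13 at -0.04 and Rpl27a at -0.03, against 0.13, 0.04, 0.02 and 0.04 as reported. In that setting Rpl5, Rpl37a and Rpl15 were at 0.06, 0.04 and 0.03, against 0.16, 0.14 and 0.08 as reported. Rps3, Rpl13a and Rps21 stayed within 1 SD there, at 0.12, 0.10 and 0.09. Rps13 was at -0.02 with median-of-ratios scaling, and Rps20 went from -0.03 to 0.13 without WT replicates 3 and 4. Libraries with the same replicate number showed no clear shared shift, with correlations of deviations of -0.11, 0.01, 0.01 and -0.02. These values cannot show whether the samples were paired. With the replicate block, 209 genes were called, Rps23 among them (adjusted p = 0.0243 in limma). Of these 63 fell, and 2 of those were biogenesis factors. The depth behind each value is unknown.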
